A study of Mus musculus with 7 samples.

Results

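The EGF receptor family and its ligands were examined in repaired mouse shoulders with and without Tenascin C. The set comprised 9 genes fixed by name, found by symbol in the Tnc-/- count files and by the same Ensembl identifier in the wild-type files, out of 56854 identifiers listed for every library. It held 3 receptors (Egfr, Erbb2 and Erbb3) and 6 ligands (Areg, Ereg, Hbegf, Tgfa, Btc and Nrg1). Whole shoulder joints were sampled 2 weeks after the supraspinatus tendon, one of those of the rotator cuff, had been repaired in the left shoulder, and poly(A)-selected RNA of each mouse gave 1 library. The 2 groups were wild type (n = 3) and Tnc-/- (n = 4), the latter lacking the gene for Tenascin C, a large glycoprotein laid down in the matrix of wounded tendon. All 7 mice had the repair, so no unoperated joint stands beside them. The labels give no strain, age or sex and do not say which part of Tnc is deleted.

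The family's receptors are tyrosine kinases of the cell surface that dimerise when a ligand binds outside the cell. Egfr binds EGF, TGF-alpha, amphiregulin, betacellulin, epiregulin and HB-EGF, whereas Erbb3 binds neuregulins, and Erbb2 has no known ligand of its own and serves as a dimer partner. The ligands are made as membrane-bound precursors and are released by metalloproteases of the ADAM family. Tenascin C carries a row of EGF-like repeats that have been described as weak ligands of Egfr. In wounds the ligands drive proliferation and migration of epithelial cells and fibroblasts, and in nerve Nrg1 acts on Schwann cells through Erbb2 and Erbb3.

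Levels are in CPM, counts per M (mega) counts of the library, with library sizes adjusted for composition by the TMM method. Libraries held 13.5 to 18.5 M gene counts in wild type and 19.3 to 28.2 M in Tnc-/-. Wild-type libraries 2 and 3 stood apart from the others. Across the tested genes, the Pearson correlation of log2(CPM + 1) was 0.963 between these 2 libraries, whereas wild-type library 1 correlated at 0.968 to 0.971 with the Tnc-/- libraries and at 0.815 and 0.869 with its own group (genes are not independent replicates). The 1514 genes for smell and pheromone receptors, which a joint is not known to use, reached a sum of 81.6, 1407 and 998 CPM in the wild type, in library order and without TMM scaling, against 32.1 to 39.5 CPM where Tnc was deleted. The labels name no counting run, but the wild-type files listed 56980 identifiers and the Tnc-/- files 56941. The 2 genotypes are therefore taken here as separate counting runs, and run and genotype cannot be told apart. Tnc (ENSMUSG00000028364) had 437, 292 and 327 CPM in the wild type, libraries given in order here and below, and 33.4, 38.9, 39.9 and 55.0 CPM in Tnc-/-. It was thus lower in every Tnc-/- library (log2 fold change -3.08, SE 0.21; edgeR, adjusted p = 2.8e-04), as the labels say. In a bulk sample, fewer cells of a type and less RNA per cell cannot be told apart, in any of the results below.

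In the joints without Tenascin C, Egfr and its ligand Btc were lower in all 4 libraries than in any wild-type library, Egfr by a factor of 1.38 and Btc by a factor of 3.32. Tgfa and Nrg1 were also called lower, but their wild-type level came mostly from libraries 2 and 3. Hbegf, the EGFR ligand with the most reads, together with Erbb2, Erbb3 and Ereg, did not pass the test. Of the 9 genes, 8 had enough counts to be tested and 1, Areg, did not; 4 of the 8 had an adjusted p under 0.05 (edgeR), all lower in Tnc-/-, and 0 were higher, be it by adjusted or unadjusted p or with DESeq2 or voom. Over all 17791 genes tested, 29.0% were called, 18.7% lower and 10.3% higher. The groups did not overlap in 3 of the 9 genes, Egfr, Tgfa and Btc, all lower; among all tested genes 17.4% were lower and 17.7% higher without overlap. When wild-type libraries 2 and 3 were left out, Btc was the 1 gene of the 8 still called, where 4.45% of all genes were called, 1.92% lower and 2.53% higher. With the summed smell and pheromone receptor signal as a covariate, 0 of the 8 were called by edgeR, where 2.46% of all genes were. At an unadjusted p under 0.05 (edgeR) 2 of the 8 passed. This covariate was itself higher in every wild-type library (at least 81.6 CPM) than in any Tnc-/- library (at most 39.5 CPM). It is thus hard to separate from genotype, and the lost calls do not show their cause. With it the SE rose from 0.12 to 0.20 for Egfr and from 0.42 to 0.57 for Btc.

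**Figure D1:**
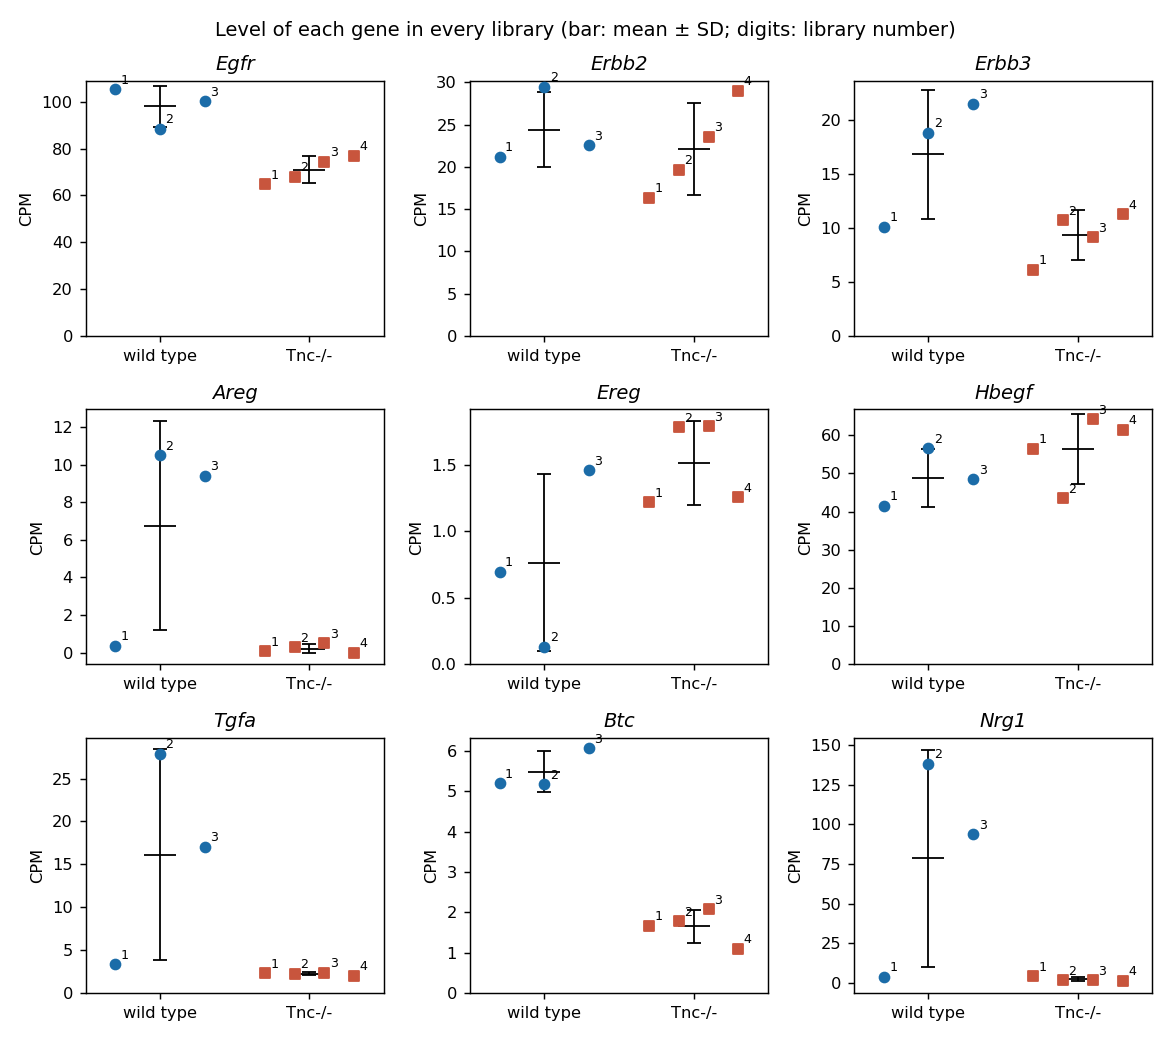
Each panel gives the CPM of a gene of the EGF receptor family in the 3 wild-type libraries (circles) and the 4 Tnc-/- libraries (squares), with the mean ± SD and the library numbers. Egfr and Btc separate the genotypes with close replicates, whereas Areg, Tgfa and Nrg1 are high in wild-type libraries 2 and 3 and not in library 1.

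The promoters of 3 of these genes are printed to set the members with the clearest pictures side by side: Egfr and Btc, lower in all Tnc-/- libraries, and Areg, near 0 in 5 libraries and present in 2. Each runs from 250 bases before the gene's start to 50 after it, 5′ to 3′ on the gene's strand, from RefSeq, which held such a sequence for 5 of the 9 genes. Capitals mark matches, on both strands, to a cAMP response element (TGACGTCA), an AP-1 element (TGANTCA), a GC box (GGGCGG) and a TATA box (TATAAA).
Egfr promoter, GRCm38.p6 chr11:16751953-16752252, plus strand: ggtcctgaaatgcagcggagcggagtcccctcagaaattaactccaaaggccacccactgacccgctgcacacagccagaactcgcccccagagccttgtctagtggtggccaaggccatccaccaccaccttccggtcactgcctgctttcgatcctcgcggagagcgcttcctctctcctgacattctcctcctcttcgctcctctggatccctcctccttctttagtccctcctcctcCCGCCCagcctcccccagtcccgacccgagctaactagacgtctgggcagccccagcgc
Btc promoter, GRCm38.p6 chr5:91402945-91403244, minus strand: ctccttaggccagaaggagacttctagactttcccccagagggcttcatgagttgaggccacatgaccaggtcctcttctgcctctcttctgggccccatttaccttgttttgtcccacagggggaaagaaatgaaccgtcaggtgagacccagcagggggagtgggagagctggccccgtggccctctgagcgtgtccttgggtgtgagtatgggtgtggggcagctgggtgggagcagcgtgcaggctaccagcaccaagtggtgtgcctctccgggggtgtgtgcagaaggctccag
Areg promoter, GRCm38.p6 chr5:91139349-91139648, plus strand: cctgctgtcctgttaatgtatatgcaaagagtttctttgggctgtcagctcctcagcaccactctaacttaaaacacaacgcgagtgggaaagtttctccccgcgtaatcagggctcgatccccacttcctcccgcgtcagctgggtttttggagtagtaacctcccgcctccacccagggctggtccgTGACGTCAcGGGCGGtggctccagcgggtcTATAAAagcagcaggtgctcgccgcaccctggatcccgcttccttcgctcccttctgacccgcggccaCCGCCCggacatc
The Egfr window held 1 GC box and none of the other motifs, and the Btc window held none of the 4. The Areg window held 1 cAMP response element, 2 GC boxes and 1 TATA box. Of 32851 windows of this length, 1.79% hold the cAMP response element, 7.81% the AP-1 element, 35.7% a GC box and 13.6% a TATA box. A match describes the letters only; no binding was measured here.

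Egfr (ENSMUSG00000020122) encodes the receptor shared by all the EGF-type ligands in the set. The wild-type libraries held 105, 88.4 and 100.2 CPM and the Tnc-/- libraries 64.7, 68.0, 74.5 and 76.9 CPM. The groups did not overlap, and wild-type library 1, which otherwise resembled the Tnc-/- libraries, had the highest level. From a wild-type mean of 97.97 ± 8.70 CPM (SD, n = 3) the level fell to 71.0 ± 5.64 CPM (SD, n = 4), and the log2 fold change was -0.46 (SE 0.12; edgeR, adjusted p = 0.0225). The change was as large without wild-type libraries 2 and 3, at -0.57, with an adjusted p of 0.0564 (edgeR). The call was near its threshold: with 1 library left out at a time it held in 2 of 7 fits, without wild-type library 2 or Tnc-/- library 4, and the adjusted p ran from 0.0322 to 0.0779 (edgeR). It was lost when the library dropped was wild type 1 or 3 or Tnc-/- 1, 2 or 3. By the measure of likeness used here, the root mean square difference of centred log2(CPM + 1) over the 7 libraries, the genes most like Egfr among 12342 were Hspa13 (0.054), Gja1 (0.060) and Wwtr1 (0.065). Hspa13 encodes a chaperone of the HSP70 family, Gja1 the gap junction protein connexin 43 and Wwtr1 the transcriptional coactivator TAZ.

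Erbb2 (ENSMUSG00000062312), the ligandless dimer partner, was at 21.2, 29.5 and 22.5 CPM in wild type and at 16.4, 19.7, 23.6 and 29.0 CPM in Tnc-/-. Tnc-/- libraries 1 and 2 lay below the wild-type range and libraries 3 and 4 inside it, so the groups overlapped. The log2 fold change was -0.14 (SE 0.23; edgeR, adjusted p = 0.675), and its sign turned without wild-type library 2. Erbb3 (ENSMUSG00000018166), the neuregulin receptor with an impaired kinase, was at 10.1, 18.9 and 21.6 CPM in wild type and at 6.14, 10.8, 9.18 and 11.3 CPM in Tnc-/-. Wild-type library 1 lay within the range of the Tnc-/- libraries, and libraries 2 and 3 lay above it. The log2 fold change of Erbb3 was -0.85 (SE 0.33; edgeR, adjusted p = 0.0806), and -0.13 without wild-type libraries 2 and 3. It passed the threshold in 3 of 19 alternatives, among them the fit without wild-type library 1, at -1.03 (edgeR, adjusted p = 0.00367). Schwann cells, a main site of Erbb3 in peripheral tissue, were represented by 10 markers, all with counts in every library; their summed level was 268 to 307 CPM in wild type and 298 to 314 CPM in Tnc-/-, with 1 marker called higher and 1 lower. The genes most like Erbb3 over the 7 libraries were Rhod (0.107), Ift81 (0.112) and Jam3 (0.130).

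Among the ligands, Btc was lower in Tnc-/- by a similar factor with and without wild-type libraries 2 and 3. Btc (ENSMUSG00000082361) encodes betacellulin, which binds Egfr and Erbb4. It had 97, 78 and 100 counts in wild-type libraries 1 to 3 and 45, 32, 37 and 21 counts in Tnc-/- libraries 1 to 4, that is 5.21, 5.18 and 6.07 CPM against 1.66, 1.78, 2.07 and 1.1 CPM. All 3 wild-type libraries were close to each other, library 1 included, and the groups did not overlap. The mean fell from 5.49 ± 0.51 CPM (SD, n = 3) to 1.65 ± 0.41 CPM (SD, n = 4), so that 30.1% of the level remained. The log2 fold change was -1.73 (SE 0.42; edgeR, adjusted p = 0.0184), and -1.66 without wild-type libraries 2 and 3 (edgeR, adjusted p = 0.0464). Over the fits that left out 1 library it ranged from -1.85 to -1.58, with adjusted p from 0.0046 to 0.0715; the call was lost without wild-type library 3 or Tnc-/- library 1 or 4. The span of Btc overlaps no other gene in the GENCODE M21 annotation.

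Hbegf (ENSMUSG00000024486) encodes heparin-binding EGF-like growth factor, made by macrophages and stromal cells of wounds. It was at 41.5, 56.6 and 48.4 CPM in wild type and at 56.5, 43.6, 64.1 and 61.4 CPM in Tnc-/-, and the groups overlapped. The log2 fold change was 0.21 (SE 0.17; edgeR, adjusted p = 0.390) and turned to -0.05 when libraries were scaled by their totals, a scaling that moved the median of all genes from -0.0009 to -0.24. Ereg (ENSMUSG00000029377) encodes epiregulin and was scarce, with 13, 2 and 24 counts in wild type and 33, 32, 32 and 24 counts in Tnc-/-. Its level was 0.70, 0.13 and 1.46 CPM against 1.22, 1.78, 1.79 and 1.25 CPM (log2 fold change 0.97, SE 0.76; edgeR, adjusted p = 0.360). Wild-type library 2 was far below the rest, and library 3 lay inside the Tnc-/- range. For neither gene does the missed threshold show that the genotypes were alike. The 8 macrophage markers summed to 606 to 1030.0 CPM in wild type and 897 to 1098 CPM in Tnc-/-, with 0 of the 8 called by edgeR, at adjusted or unadjusted p, and 0 by DESeq2 and voom.

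Tgfa (ENSMUSG00000029999), which encodes TGF-alpha, had 3.38, 27.9 and 17.1 CPM in the wild type against 2.33, 2.23, 2.35 and 1.99 CPM in Tnc-/-. The Tnc-/- libraries were almost equal, and wild-type library 1 lay just above them. The log2 fold change was -2.85 (SE 0.60; edgeR, adjusted p = 0.0108) with all libraries and -0.61 (SE 0.39; edgeR, adjusted p = 0.365) without wild-type libraries 2 and 3. Nrg1 (ENSMUSG00000062991), the neuregulin that signals to Schwann cells and muscle, showed the split more sharply. It had 75, 2083 and 1545 counts in wild-type libraries 1 to 3 and 114, 32, 32 and 29 in Tnc-/-, or 4.03, 138 and 93.9 CPM against 4.22, 1.78, 1.79 and 1.52 CPM. Wild-type library 1 and Tnc-/- library 1 were thus at about the same level, and the groups overlapped. The log2 fold change of Nrg1 was -5.05 (SE 0.98; edgeR, adjusted p = 0.00977) with all libraries and -0.77 (SE 0.53; edgeR, adjusted p = 0.389) without wild-type libraries 2 and 3. A second identifier with the symbol Nrg1, ENSMUSG00000118541, had 0 counts in every library. The genes most like Nrg1 were Dscam (0.174), Malrd1 (0.235) and Tnni3k (0.248).

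Areg (ENSMUSG00000029378) encodes amphiregulin, an EGFR ligand of epithelial repair that is also released by regulatory T cells and type 2 innate lymphoid cells. It had 7, 158 and 155 counts in wild-type libraries 1 to 3 and 2, 5, 9 and 0 counts in Tnc-/- libraries 1 to 4. In CPM this was 0.376, 10.5 and 9.42 in wild type and 0.074, 0.279, 0.504 and 0 in Tnc-/-, where the count of 0 allows up to 0.157 CPM (3 counts in a library of that scaled size; counting error only). Wild-type library 1 lay inside the Tnc-/- range, and because 2 libraries alone held most of the reads, Areg did not pass the filter on low counts. Without a filter its log2 fold change was -4.86 (SE 1.29; edgeR, adjusted p = 0.0227), a value that rests on wild-type libraries 2 and 3. Areg lies on chromosome 5 beside 3 other EGFR ligand genes, in the order Epgn, Ereg, Areg, Btc. The neighbours did not share its pattern: over wild-type libraries 1 to 3, Epgn was at 0.268, 0 and 0.425 CPM, Ereg at 0.70, 0.13 and 1.46 CPM and Btc at 5.21, 5.18 and 6.07 CPM.

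**Figure D2:**
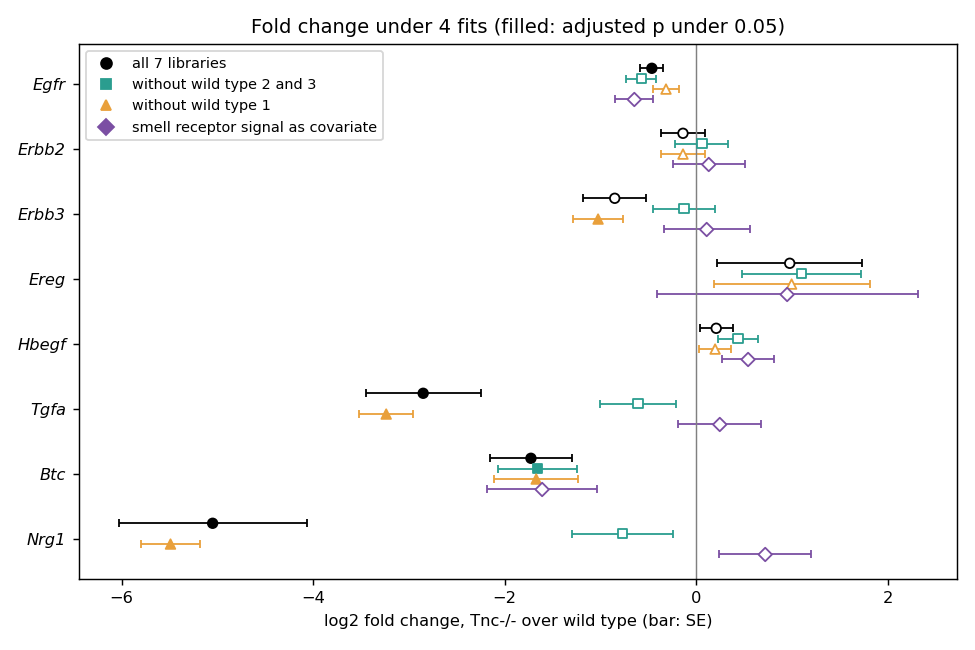
Log2 fold change (Tnc-/- over wild type, ± SE) of the 8 tested genes in 4 edgeR fits: with all libraries, without wild-type libraries 2 and 3, without wild-type library 1, and with the smell receptor signal as a covariate. Btc stays between -1.73 and -1.61 and Egfr between -0.65 and -0.32, whereas Nrg1 moves from -5.49 to 0.72 and Tgfa from -3.24 to 0.24.

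How far wild-type libraries 2 and 3 departed from library 1 was set against gene span, introns included, as annotated in GENCODE M21. Nrg1 spans 1069 kb, Egfr 166 kb, Tgfa 80.5 kb, Btc 45.7 kb, Erbb2 25.2 kb, Erbb3 22.1 kb, Ereg 19.0 kb, Hbegf 10.9 kb and Areg 8.83 kb. The mean of libraries 2 and 3 was 28.9 times the level of library 1 for Nrg1, 26.5 times for Areg, 6.65 times for Tgfa and 1.99 times for Erbb3, and between 0.895 and 1.27 times for the other 5 genes. Among all 17791 tested genes, 14.4% reached at least 4 times the level of library 1 in this mean, with a small constant added to both. Per kb of span, the smell and pheromone receptor genes gained 0.091 and 0.062 CPM in libraries 2 and 3 over library 1. Nrg1 gained 0.126 and 0.084 CPM per kb, near that level, and Tgfa 0.305 and 0.170. The gain per kb was 1.15 and 1.02 CPM for Areg, 1.39 and 0.637 for Hbegf, 0.395 and 0.516 for Erbb3, and 0.329 and 0.053 for Erbb2. For Hbegf the gain was below its level in library 1, whereas for Areg it was nearly its whole level. Ereg was at -0.030 and 0.040 CPM per kb. Egfr and Btc had no net gain or next to none. The values were -0.102 and -0.031 CPM per kb for Egfr and -4.9e-04 and 0.019 for Btc. A net change near 0 does not show that these genes were free of the signal gained by the receptor genes. How much of it their levels in libraries 2 and 3 held was not tested. It matters more for Btc, at 5.18 and 6.07 CPM there over 45.7 kb, than for Egfr, at 88.4 and 100.2 CPM over 166 kb. Keratinocytes are a rich source of Areg and Tgfa, and their 12 markers together held 2.74, 47.4 and 32.3 CPM in the wild type and 3.33 to 4.62 CPM in Tnc-/-. In wild-type libraries 2 and 3 most of it came from desmoplakin (Dsp), at 27.1 and 15.1 CPM, and keratinocyte differentiation-associated protein (Krtdap), at 15.4 and 13.8 CPM. Dsg1a (43 and 9 counts) and Ivl (20 and 16 counts) were also present in these libraries, and both had 0 counts in wild-type library 1 and in all Tnc-/- libraries. The basal keratins Krt5 and Krt14 and the markers Krt1, Krt15 and Flg had 0 counts in libraries 2 and 3; the 0 of Sbsn is not informative, since 99.8% of its span lies inside Tmem147os. The remaining 2 markers were scarce, and in neither did libraries 2 and 3 lie above the Tnc-/- range: Krt10 had 0.966, 0.532 and 1.52 CPM in the wild type and 2.33 to 2.84 CPM in Tnc-/-, and Lor 0.054, 0.133 and 0.304 CPM against 0.259 to 0.952 CPM. Per kb of span the gain was 4.70 and 4.21 CPM for Krtdap, 0.560 and 0.306 for Dsp, 0.469 and 0.343 for Ivl, and 0.088 and 0.017 for Dsg1a, the last below that of the receptor genes. The part of epidermal RNA in the Areg and Tgfa values was not tested. The 6 markers of mast cells and type 2 innate lymphoid cells summed to 49.9 to 58.5 CPM in wild type and 44.5 to 59.2 CPM in Tnc-/-.

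**Figure D3:**
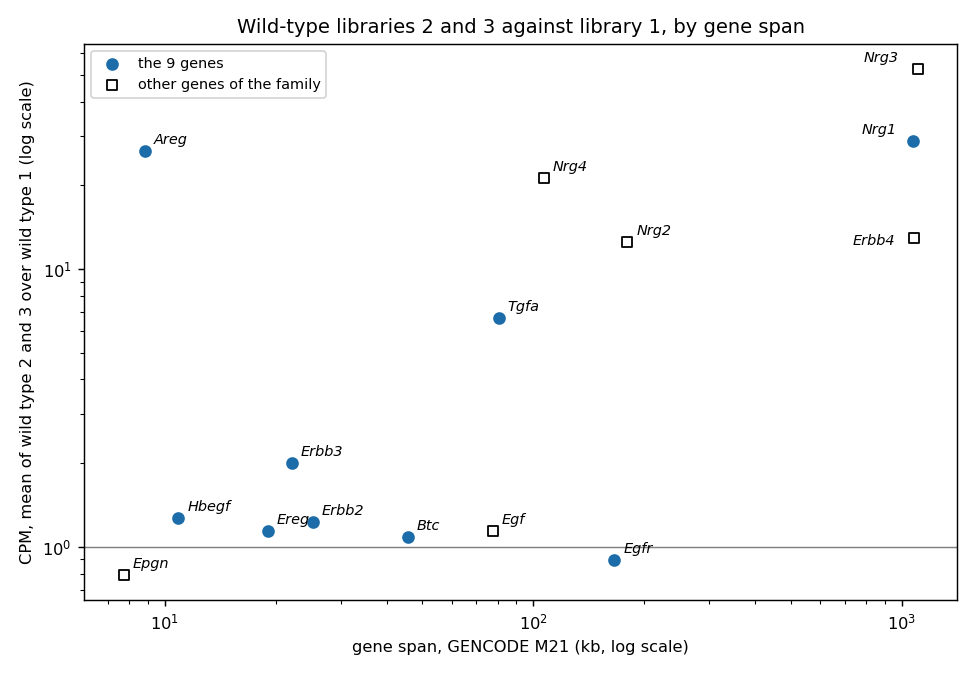
The ratio of the mean CPM of wild-type libraries 2 and 3 to wild-type library 1 (log scale) against gene span in kb (log scale), for the 9 genes (filled) and the other 6 genes of the family (open). The neuregulins and Erbb4 lie high at long spans, Egfr and Btc lie near 1, and Areg is high at 26.5 with a span of 8.83 kb.

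Levels were compared between genes per kb of exon (GENCODE M21 union of exons), since longer transcripts give more reads. Introns may add to the counts, as set out below, and exon length does not allow for this. The order therefore holds for this measure alone, and least surely for scarce genes of long span such as Nrg1 (1069 kb). In Tnc-/- the order was Hbegf (11.7 ± 1.88 CPM per kb, SD, n = 4), Egfr (6.27 ± 0.50), Erbb2 (4.25 ± 1.04), Erbb3 (1.55 ± 0.39), then Ereg (0.366 ± 0.077), Btc (0.366 ± 0.090), Tgfa (0.343 ± 0.026), Nrg1 (0.225 ± 0.122) and Areg (0.176 ± 0.186). The first 4 stood apart from each other by more than their SDs, and each of the last 5 lay within the SD of its neighbour. In wild type Hbegf (10.1 ± 1.57, n = 3) and Egfr (8.65 ± 0.77) again led, but Nrg1 (7.61 ± 6.61), Areg (5.57 ± 4.58) and Tgfa (2.48 ± 1.89) had SDs close to their means, so their place in the order is not set. Erbb2 (4.69 ± 0.86), Erbb3 (2.80 ± 0.99), Btc (1.21 ± 0.11) and Ereg (0.185 ± 0.161) followed in that order. By this measure Btc lay well above Ereg in wild type and level with it in Tnc-/-.

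The other genes of the pathway gave a mixed picture. Of 66 listed, 65 were tested; 5 were called higher and 5 lower, and 55 were not called, so 10 of 65 were called where 29.0% of all genes were. With libraries scaled by their totals the split was 3 higher and 14 lower. Among the remaining family members, 2 of 5 tested were called, both lower: Erbb4, the second neuregulin receptor, and Nrg3. The median log2 fold change of this list was -1.90, against -0.0009 for all genes, and turned to 0.69 without wild-type libraries 2 and 3. Erbb4 (ENSMUSG00000062209) was at 5.96, 93.1 and 60.9 CPM in wild type and at 0.89 to 1.73 CPM in Tnc-/-, below every wild-type library (log2 fold change -5.36, SE 0.81; edgeR, adjusted p = 0.0067). It was still called without wild-type libraries 2 and 3, at -2.21 (edgeR, adjusted p = 0.0183), but not with the smell receptor signal as a covariate, at -1.10 (edgeR, adjusted p = 0.101). Nrg3 (ENSMUSG00000041014) was at 2.09, 117 and 102 CPM in wild type and at 0.185, 0, 0 and 0.314 CPM in Tnc-/-, where a count of 0 allows up to 0.168 CPM. Nrg3 passed the filter on low counts through the wild-type libraries alone, so its fitted value, -9.05 on the log2 scale (SE 1.44; edgeR, adjusted p = 0.00701), is a description, and it had no value when 10 counts were required in every library. The call was lost without wild-type libraries 2 and 3 (edgeR, adjusted p = 0.0613). Egf itself was at 6.87, 10.4 and 5.22 CPM in wild type and at 7.10, 16.2, 10.2 and 11.0 CPM in Tnc-/-, with overlapping groups.

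Of 9 genes for the shedding of ligands, 1 was called, Rhbdf2, and the list's median was -0.065. Rhbdf2 (ENSMUSG00000020806) encodes iRhom2, which carries the sheddase ADAM17 to the cell surface. It rose in Tnc-/-, from 26.2, 17.1 and 24.1 CPM to 58.8, 44.1, 55.8 and 49.9 CPM, with no overlap (log2 fold change 1.21, SE 0.19; edgeR, adjusted p = 0.0067). The call held without wild-type libraries 2 and 3, at 0.99 (edgeR, adjusted p = 0.0227), and in all 7 fits that left out a library, but not with the smell receptor signal as a covariate, at 0.85 (edgeR, adjusted p = 0.134). The sheddases Adam10 (log2 fold change -0.13) and Adam17 (-0.065) were not called. The neutrophil is a blood cell in which Rhbdf2 is also active. Its 8 markers summed to 5766, 2763 and 3021 CPM in wild type and 6366 to 10810 CPM in Tnc-/-. Wild-type library 1 was thus nearest the Tnc-/- range. Of the 8 markers, 5 were called higher, where 10.3% of all genes were. The part of neutrophils in the rise of Rhbdf2 was not tested.

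Of 24 adaptors and signal transducers, 2 were called higher and 2 lower, with a median of 0.088. Src (ENSMUSG00000027646), a kinase that acts with Egfr, was at 37.4, 35.8 and 29.0 CPM in wild type and at 50.1, 48.8, 57.6 and 61.7 CPM in Tnc-/- (log2 fold change 0.68, SE 0.15; edgeR, adjusted p = 0.0126). Grb2 (ENSMUSG00000059923), the adaptor that links the receptor to Ras, was at 95.8, 82.1 and 65.1 CPM against 126, 116, 126 and 125 CPM (0.60, SE 0.15; edgeR, adjusted p = 0.0179). In both genes the groups did not overlap, and both calls were lost without wild-type libraries 2 and 3, at 0.54 and 0.36. The 2 called lower were Sos1 (-1.32; edgeR, adjusted p = 0.047) and Braf (-0.60; edgeR, adjusted p = 0.0324), which without those libraries were at 0.081 and -0.24 and not called. With 1 library left out, the call of Sos1 held in 1 of 7 fits (without wild-type library 1) and that of Braf in 2 (without wild-type library 1 or Tnc-/- library 1). Of the 16 genes of negative feedback, 0 were called, among them Errfi1, Lrig1, Cbl and Dusp6, with a median of -0.088 (edgeR; 2 at an unadjusted p under 0.05, and 2 by DESeq2 and 0 by voom at an adjusted p). Of 11 transcriptional targets, 2 were called higher and 1 lower, with a median of 0.20. Myc (ENSMUSG00000022346) rose from 18.5, 17.0 and 19.8 CPM to 32.9, 25.5, 33.2 and 28.7 CPM (0.71, SE 0.16; edgeR, adjusted p = 0.0141), a value that stayed at 0.70 without wild-type libraries 2 and 3 but missed the threshold there (edgeR, adjusted p = 0.0759) and without Tnc-/- library 1 or 3. Etv5 (ENSMUSG00000013089), an ETS factor induced by growth factor signals, was at 25.1, 58.8 and 49.99 CPM in wild type and at 19.5, 22.0, 16.9 and 20.7 CPM in Tnc-/- (-1.17, SE 0.27; edgeR, adjusted p = 0.0138), and at -0.35 without wild-type libraries 2 and 3 (edgeR, adjusted p = 0.311). The other target called higher was Junb (0.74; edgeR, adjusted p = 0.0301), a call lost without wild-type libraries 2 and 3 at a similar value (0.69; edgeR, adjusted p = 0.102) and in 4 of the 7 fits with a library left out: wild type 3 and Tnc-/- 2, 3 and 4. The call of Grb2 was lost without wild-type library 3 or Tnc-/- library 1 or 3, and that of Etv5 when wild type 2 or 3 or Tnc-/- 3 was dropped.

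**Figure D4:**
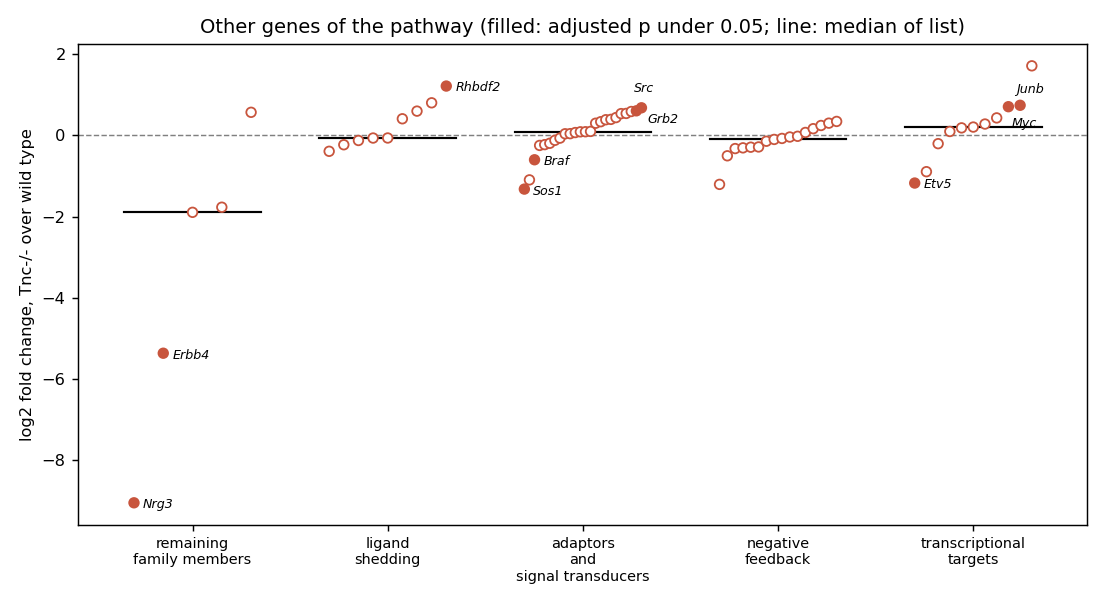
Log2 fold change (Tnc-/- over wild type) of the 65 tested pathway genes by list; filled points had an adjusted p under 0.05 and black lines are the list medians. Most points of the shedding, adaptor, feedback and target lists lie near 0, with Rhbdf2 the highest of the called genes at 1.21.

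Marker levels of the joint's cell types were read beside these results. The fibroblast markers, 9 of 9 with counts in every library, summed to 31140 to 50120 CPM in wild type and 33200 to 57790 CPM in Tnc-/-, and the 6 tendon markers to 3504 to 4430 and 3260 to 5876 CPM, so both sums overlapped between the genotypes. The fibroblast sum is mostly collagen (Col1a1, Col1a2 and Col3a1), and 3 single markers of these lists were called: Lum (-0.63; edgeR, adjusted p = 0.0482) and the tendon factor Mkx (-0.92; edgeR, adjusted p = 0.0379) lower, and Pi16 (0.78; edgeR, adjusted p = 0.0286) higher. These calls held in 1, 1 and 2 of the 7 fits with a library left out, and all 3 were lost without wild-type libraries 2 and 3 (edgeR, adjusted p = 0.0613, 0.176 and 0.224), where the log2 fold changes were -0.84, -0.65 and 0.40. Dcn was lower without overlap but was not called (-0.44; edgeR, adjusted p = 0.102). The tendon marker Scx had 0 counts in all 7 libraries. The sum of the 8 skeletal muscle markers was higher in every Tnc-/- library. It was 20670 to 27470 CPM in wild type and 30000.0 to 44340 CPM in Tnc-/-. Of the 8, 3 were called higher, where 10.3% of all genes were. The part of muscle, neutrophil and fibroblast RNA in the lower share of Egfr and Btc was not tested.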

How the data were processed

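Each library has 1 deposited file of raw read counts by gene. Per the submitters' processing notes the tools were FastQC 0.11.9, HISAT2 2.2.1, HTSeq 2.0.2 and DESeq2 1.38.3, with the builds GRCm39 and mm39; the annotation and the counting settings are not given in the sources used here. Wild-type files listed 56980 identifiers and Tnc-/- files 56941, with 56854 in common; none of the 9 genes overlaps, in GENCODE M21, an identifier listed in 1 run alone (125 of 213 could be placed). Rows that name no gene held 30.1 to 32.7% of the reads listed for Tnc-/-, 11.4 to 11.6% being ambiguous between genes, and were left out. Protein-coding genes lying inside another gene's span had 0 counts in all libraries in 98.2% (same strand, 380 genes) and 99.6% (opposite strand, 684 genes) of cases, against 12.3% of 20736 others. Counting over whole gene spans without strand would give this pattern, but was not tested as its cause. Introns may add to the counts. Scx lies inside the span of Bop1. Of the span of Egfr 9.20% lies inside another gene, and 77.0% of that of Tnc.

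The test was run in edgeR 4.0.16 (R 4.3.3): default filterByExpr, TMM, robust quasi-likelihood F test with genotype as its 1 term, Benjamini-Hochberg adjustment over 17791 genes and a threshold of 0.05. The SE is the log2 fold change over the square root of F. The procedure was checked on simulated counts that held no split between the wild-type libraries. The check therefore does not bear on calls that depend on wild-type libraries 2 and 3. The 19 alternatives used DESeq2 1.42.0, limma 3.58.1 voom, other scalings, filters and adjustments, a covariate (log2 CPM summed over smell and pheromone receptor genes), the replicate number as a block, and left-out libraries. Always named were the 9 genes and Tnc; from each pathway list the 2 genes with the smallest p among those called; for Egfr, Erbb3 and Nrg1 the 3 genes most like them with a mean of at least 5 CPM. Others were named after their values were seen. Members, lists and tests were chosen with earlier results of these data known. P-values measure the spread between these samples. The reference used here is GRCm38, so coordinates are given for the RefSeq promoters alone. All columns of values could be assigned to a library (0 left over).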

Additional observations from a re-analysis of the deposited data

Results flagged for a closer look

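In 17 genes the 4 Tnc-/- values were checked for 1 that lay far off the others, and 2 genes had one; chance alone gives about 1 in 20. Nrg1 was at 4.22 CPM in Tnc-/- library 1, against 1.52 to 1.79 CPM in the other Tnc-/- libraries, a gap of 0.898 of the whole range, past Dixon's critical value for 4 samples. Grb2 was at 115.7 CPM in Tnc-/- library 2, against 125 to 126 CPM in the others, a gap of 0.851 of the range.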

How the results depend on the processing

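Of the 9 genes, 4 were called; DESeq2 with Bonferroni adjustment, the rule named in the series text, called 1 (Nrg1), limma voom 1 (Btc), the fit without wild-type libraries 2 and 3 called 1 (Btc), and edgeR with Bonferroni adjustment, the background covariate and the replicate block 0 each (5, 2 and 4 at an unadjusted p under 0.05). Leaving out each library in turn gave 2 to 5. All-gene counts were 9423 with DESeq2 and Benjamini-Hochberg adjustment, 1890 with DESeq2 and Bonferroni, 22 with edgeR and Bonferroni, 1004 with voom, 438 with the covariate, 1932 with the replicate block, 825 without wild-type libraries 2 and 3, and 2229 to 14113 when 1 library was left out, the highest without wild-type library 1; the count reported was 5159, 64.5% of it lower, or 82.7% with library totals. Calls in the pathway lists numbered 10, against 17 with library totals, 17 and 3 with DESeq2 (Benjamini-Hochberg and Bonferroni), 0 with edgeR and Bonferroni (24 at an unadjusted p under 0.05), 2 with voom, 2 with the covariate (Nrg2 at 2.41 and Nrg4 at 3.32, both higher, against -1.77 and -1.90, and none of the 10), 3 with the replicate block, 3 without wild-type libraries 2 and 3, and 4 to 31 when 1 library was left out. The sign turned with the covariate for Erbb2 (0.13), Erbb3 (0.11), Tgfa (0.24) and Nrg1 (0.72), for Erbb2 also without wild-type libraries 2 and 3 (0.056) and within its range of -0.30 to 0.022 when 1 library was left out (0.022 without wild-type library 2), and for Hbegf with library totals (-0.046). The cause of these shifts was not tested. Egfr kept its direction in 19 of 19 alternatives and its call in 7, Btc in 19 and 11, and Tnc its call in 19. The replicate numbers are not said to pair the mice. Same-numbered libraries deviated together with correlations of 0.007, 0.117 and 0, but so few libraries cannot show whether the mice were paired. The replicate block is therefore given for its counts alone. Leaving 1 wild-type library assumes that it varies like the others. Ereg, with 2 to 33 counts per library, is limited by depth. Areg had 158 and 155 counts in wild-type libraries 2 and 3, the 2 with the lowest totals, and at most 9 in any other library. Its value is limited by that split.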
